A study of Mus musculus with 8 samples.

Results

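The genes of the TGF-beta branch proper were followed in cultured mouse hippocampal neurons depolarised with potassium chloride. They comprise the 3 ligand genes Tgfb1, Tgfb2 and Tgfb3, the 3 receptor genes Tgfbr1, Tgfbr2 and Tgfbr3, and the 4 SMAD genes Smad2, Smad3, Smad4 and Smad7. The activin and BMP branches were left aside. Each of the 10 genes had 1 probe set annotated to it alone, among 22180 genes that could be named this way, so all 10 were measured and no choice between probe sets was needed. Hippocampal neurons from C57BL/6J embryos at E18.5 were kept for 11 days in vitro with AraC, which kills dividing cells, and 4 cultures then held in 55 mM KCl for 4 h were set against 4 untreated cultures. The labels give no genotype beyond the strain, and each of the 8 arrays carried a mouse number of its own. High potassium opens voltage-gated calcium channels in every neuron of the dish at once, which limits it as a model of patterned synaptic activity. The values are log2 brightness after RMA, which corrects background and puts arrays on a common scale, so a difference of 1 is a doubling. Levels of different probe sets cannot be compared with each other on this scale.

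TGF-beta ligands are secreted in a latent complex and, once released, bring together a type II receptor (Tgfbr2) and a type I receptor (Tgfbr1). The type I receptor phosphorylates Smad2 and Smad3, which join Smad4 and act on genes in the nucleus. Smad7 is induced by the pathway and shuts it down at the receptor. In the hippocampus the pathway is known for roles in neuronal survival, synapse formation and the signalling between neurons, astrocytes and microglia. The series title names TGF-beta signalling beside neuronal activity as an influence on the Gadd45 genes, and the question here was whether 4 h of depolarisation changed the pathway's own genes.

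Neuronal markers gave signal on every array, with log2 values of 12.21 to 12.47 for Snap25 and 11.37 to 11.85 for Map2, while Gad1, of inhibitory neurons, ran from 3.96 to 7.04. Astrocyte markers did too, at 11.03 to 11.64 for Slc1a3 and 10.45 to 11.25 for Gfap, and the share of neurons cannot be read from these values. Medians over all probe sets were 4.44 to 4.48. The titles give both groups the numbers 1 to 4, and same-numbered arrays deviated together across genes (r = 0.234 to 0.638, against at most 0.302 for any other pair), so differences are given per pair as well as per group. On the first principal component of all named genes, which held 36.6% of the variance, the arrays numbered 1 lay at -43.2 (KCl) and -48.6 (untreated) and the other 6 between -4.58 and 26.6, so the main counts are also given without both arrays numbered 1. RNA came from whole cultures, so fewer cells of a type and less RNA per cell cannot be told apart.

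None of the 10 genes passed the test between KCl and untreated arrays (limma, adjusted p under 0.05 over all 22180 genes), where 2.36% of all genes did. At an unadjusted p under 0.05 there was 1, Smad7, against 13% of all genes. With the replicate number as a block the counts were 0, against 4.44% of all genes, and 1 at an unadjusted p, against 18.2%. No member had KCl arrays that lay wholly beyond the untreated ones, which 8.16% of all genes did, and none moved the same way in all 4 pairs, against 24.2%. The median log2 change over the 10 was 0.22, with 7 higher and 3 lower, beside a median of -0.01 over all genes. Without both arrays numbered 1 the count of members past the threshold was again 0.

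**Figure D1:**
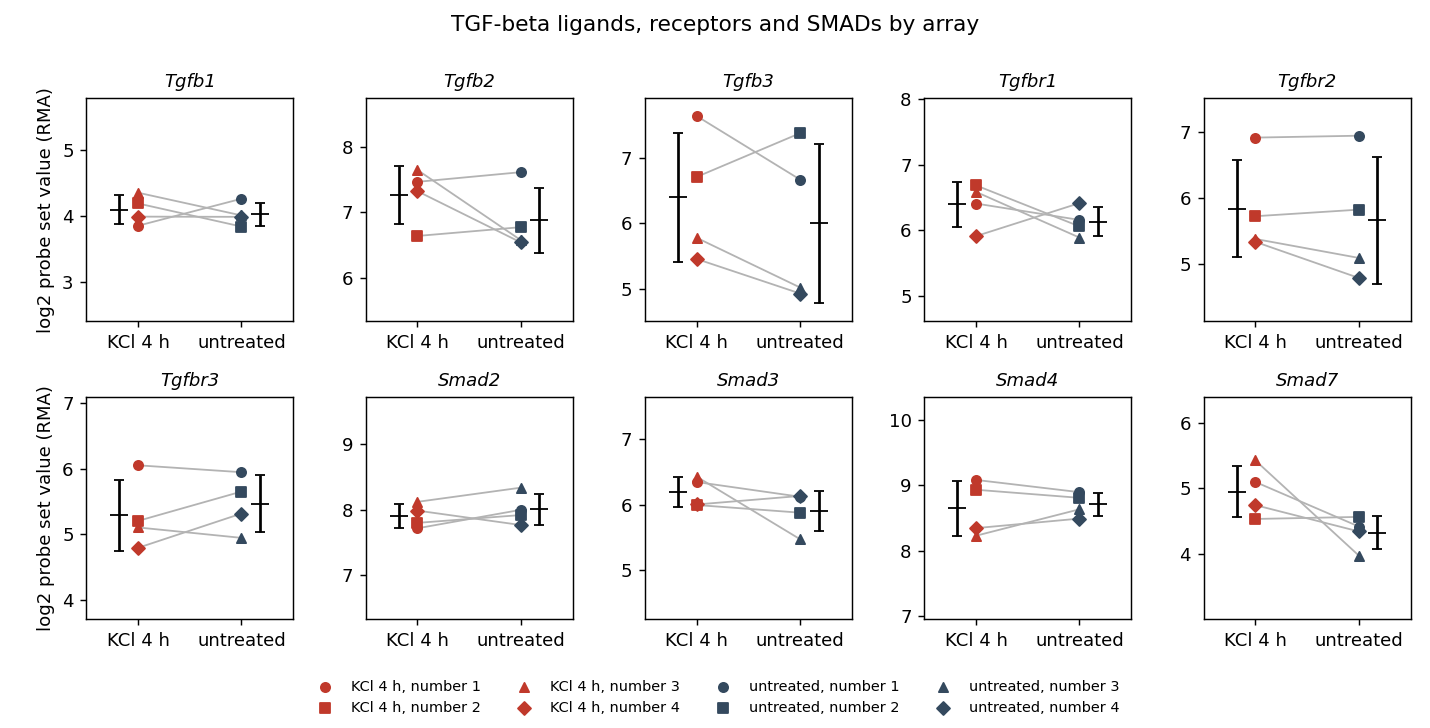
Log2 probe set values (vertical axis, RMA) of the 10 genes on 4 KCl arrays (red, left) and 4 untreated arrays (dark blue, right), with lines joining same-numbered arrays and bars for the mean and SD. The groups overlap for every gene, and for Smad7 a single KCl array, at 4.53, lies within the untreated range.

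Among the ligands, Tgfb1 encodes a ligand made by microglia. Its values were 3.85, 4.19, 4.36 and 3.99 in the KCl arrays numbered 1 to 4, against 4.26, 3.84, 4.01 and 3.99 in the untreated arrays. KCl minus untreated was -0.41, 0.35, 0.35 and 0.0033 in the pairs numbered 1 to 4. All 8 lay below the median probe set of their array, where RMA compresses differences, so the small log2 change of 0.07 (SE 0.14, limma adjusted p = 0.933) does not bound the change of a dim transcript. Of the 8 listed markers of microglia, 0 passed between the groups and 7 stayed under 5 on all arrays. Their summed level was 7.27 to 7.60 in KCl and 7.41 to 7.56 in untreated arrays on the log2 scale.

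Tgfb2, the ligand of developing neurons and glia, stood at 7.46, 6.64, 7.64 and 7.32 in the KCl arrays, against 7.61, 6.77, 6.57 and 6.54 in the untreated arrays. The pairs split: KCl minus untreated was 1.07 and 0.78 in the pairs numbered 3 and 4, and -0.15 and -0.13 in those numbered 1 and 2. The mean log2 change of 0.39 (SE 0.29, limma adjusted p = 0.704) was within the spread between arrays, and its 95% interval ran from -0.27 to 1.05, or 0.832-fold to 2.07-fold. The untreated array numbered 1, at 7.61, was above the other 3 untreated arrays, at 6.54 to 6.77.

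Tgfb3, the third ligand, had the largest standard error of the 10. Its values were 7.64, 6.71, 5.78 and 5.46 in the KCl arrays, against 6.67, 7.38, 5.02 and 4.93 in the untreated arrays. In both groups the arrays numbered 1 and 2 were above those numbered 3 and 4, while KCl minus untreated was 0.97, -0.67, 0.76 and 0.53 in the pairs. The log2 change was 0.40 with an SE of 0.66 (limma adjusted p = 0.920), and the block lowered the SE to 0.26 without bringing a call (adjusted p = 0.535). Its 95% interval was 0.464-fold to 3.74-fold without the block and 0.853-fold to 2.03-fold with it. Leaving out the pair numbered 2, the only one below 0, gave 0.75 with the block (limma adjusted p = 0.0614).

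The promoter windows of Tgfb1 and Tgfb2 are shown because, of these 2 related ligands, Tgfb2 had the wider pair differences and Tgfb1 lay below the median probe set. Neither passed between KCl and untreated arrays (limma adjusted p = 0.933 for Tgfb1 and 0.704 for Tgfb2). The windows hold 250 bases before and 50 after the annotated start in RefSeq, build GRCm38.p6, at chr7:25686752-25687051 on the plus strand for Tgfb1 and chr1:186705940-186706239 on the minus strand for Tgfb2. Capitals mark matches, on either strand, to TGACGTCA (the cAMP response element bound by CREB), its core TGACG, the AP-1 element TGANTCA of Fos and Jun dimers, the E-box CACGTG and the SMAD box CAGAC. A full cAMP response element would also count as its core.
Tgfb1 promoter: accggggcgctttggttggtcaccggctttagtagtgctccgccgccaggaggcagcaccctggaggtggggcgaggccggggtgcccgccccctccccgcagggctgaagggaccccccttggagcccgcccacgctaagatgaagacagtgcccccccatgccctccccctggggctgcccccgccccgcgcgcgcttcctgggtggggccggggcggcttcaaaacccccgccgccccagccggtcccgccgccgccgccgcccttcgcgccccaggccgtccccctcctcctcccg
Tgfb2 promoter: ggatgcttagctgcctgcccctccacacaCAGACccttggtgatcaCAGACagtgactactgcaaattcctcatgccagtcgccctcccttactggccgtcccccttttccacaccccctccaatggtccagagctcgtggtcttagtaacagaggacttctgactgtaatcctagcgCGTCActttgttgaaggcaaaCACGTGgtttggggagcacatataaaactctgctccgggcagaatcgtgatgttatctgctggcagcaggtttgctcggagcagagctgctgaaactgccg
The Tgfb1 window held none of these letters, and its GC content was 77%, against a median of 52.7% over all 32841 windows. The Tgfb2 window held TGACG once, at position -72 from the start, CACGTG once, at -51, and CAGAC at -221 and -204. Over all windows, 20.8% held TGACG, 7.15% CACGTG, 49.6% CAGAC, 7.81% TGANTCA and 1.79% TGACGTCA. Windows were searched for 5 of the 10 genes (Tgfb1, Tgfb2, Tgfbr1, Tgfbr2 and Smad3). In none of their 6 windows was there a TGACGTCA or a TGANTCA. The windows of Tgfb3, Tgfbr3, Smad2, Smad4 and Smad7 were not searched, so nothing is said of these letters there. A match is a description of the letters in this window.

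Among the receptors, Tgfbr1 encodes the type I kinase, also called ALK5. It stood at 6.41, 6.69, 6.59 and 5.91 in the KCl arrays, against 6.16, 6.06, 5.89 and 6.42 in the untreated arrays. It was higher with KCl in 3 of 4 pairs, by 0.25 to 0.70, and lower by 0.50 on the log2 scale in the pair numbered 4. The log2 change of 0.27 (SE 0.19, limma adjusted p = 0.675) did not pass, and its interval of 0.898-fold to 1.61-fold leaves out a doubling.

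Tgfbr2, the type II receptor that binds the ligand first, differed less within pairs than between them. It stood at 6.92, 5.72, 5.38 and 5.33 in the KCl arrays, against 6.95, 5.82, 5.09 and 4.78 in the untreated arrays. The differences within pairs ran from -0.10 to 0.55, while the pair means ran from 5.06 to 6.94. The log2 change was 0.18, with an SE of 0.52 without the block and 0.13 with it (limma adjusted p = 0.963 and 0.605). The 95% interval was 0.500-fold to 2.56-fold without the block and 0.905-fold to 1.41-fold with it. Its promoter window is shown as that of a member that differed between replicate numbers (GRCm38.p6, chr9:116175314-116175613, minus strand), with the same motifs in capitals.
Tgfbr2 promoter: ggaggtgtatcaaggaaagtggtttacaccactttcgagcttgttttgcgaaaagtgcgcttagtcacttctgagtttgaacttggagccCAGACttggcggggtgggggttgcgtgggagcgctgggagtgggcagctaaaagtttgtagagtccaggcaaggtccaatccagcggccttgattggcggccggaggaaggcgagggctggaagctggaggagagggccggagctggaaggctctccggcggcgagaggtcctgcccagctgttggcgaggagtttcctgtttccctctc
The window held CAGAC once, at position -160, and none of the other letters searched.

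Tgfbr3 encodes betaglycan, a co-receptor that has no kinase and presents Tgfb2 in particular. Its values were 6.05, 5.21, 5.11 and 4.80 in the KCl arrays, against 5.95, 5.65, 4.95 and 5.32 in the untreated arrays. KCl minus untreated was positive in the pairs numbered 1 and 3, at 0.11 and 0.16, and negative in the other two, at -0.45 and -0.52. The log2 change was -0.18 (SE 0.30, limma adjusted p = 0.922), within the spread between arrays. Its 95% interval was 0.552-fold to 1.42-fold without the block and 0.691-fold to 1.13-fold with it.

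Among the SMADs that carry the signal, Smad2 and Smad4 had changes close to 0. Smad2, phosphorylated by Tgfbr1, stood at 7.72, 7.80, 8.12 and 7.99 in the KCl arrays, against 8.001, 7.92, 8.34 and 7.77 in the untreated arrays, a log2 change of -0.10 (SE 0.15, limma adjusted p = 0.901). Smad4, the partner shared with the BMP branch, stood at 9.08, 8.93, 8.23 and 8.34 in the KCl arrays, against 8.89, 8.81, 8.63 and 8.49 in the untreated arrays, a change of -0.06 (SE 0.21, limma adjusted p = 0.970). The intervals were 0.742-fold to 1.17-fold for Smad2 and 0.694-fold to 1.33-fold for Smad4, so a change of 1.5-fold either way lay outside both. Smad3, the other receptor-regulated SMAD, stood at 6.34, 5.99, 6.43 and 6.00 in the KCl arrays, against 6.12, 5.88, 5.47 and 6.13 in the untreated arrays. Its log2 change of 0.29 (SE 0.18, limma adjusted p = 0.593) came mostly from the pair numbered 3, where KCl was higher by 0.95, against -0.13 to 0.22 in the other 3.

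Smad7, the inhibitory SMAD, had the largest difference of the 10. It stood at 5.10, 4.53, 5.43 and 4.75 in the KCl arrays, against 4.42, 4.57, 3.98 and 4.34 in the untreated arrays. The groups overlapped by the KCl array numbered 2 alone, which lay 0.03 under its untreated partner on the log2 scale, and KCl was higher in the other pairs, by 0.68, 1.45 and 0.40. The mean was 4.95 ± 0.39 with KCl and 4.33 ± 0.25 without (SD, n = 4 each). Over all 8 arrays it was 4.64, under the 4.758 of the median gene, a dim range where RMA compresses differences. The log2 change was 0.63, or 1.54-fold (SE 0.21, limma adjusted p = 0.212). The 95% interval, not adjusted over genes, was 1.11-fold to 2.14-fold, and the block gave an adjusted p of 0.210. Without the KCl array numbered 2 the change was 0.76 (adjusted p = 0.136). Leaving out the pair numbered 3 lowered it to 0.35 with the block (adjusted p = 0.453).

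Fos and Gadd45b were far apart in every pair, also where Smad7 was not. In pair 2, the immediate-early gene Fos was higher with KCl by 4.58 and Gadd45b, the stress-response gene of the series title, by 2.38 on the log2 scale. In pair 3, where the Smad7 difference was largest, the 2 genes were higher by 4.99 and 2.88. In the pairs numbered 1 and 4, Fos was higher by 3.46 and 3.71 and Gadd45b by 1.86 and 1.95. Gadd45g was higher by 2.84 to 3.69 in the pairs. The activity gene Npas4 was less even, higher by 1.55, 3.91, 6.77 and 3.96 in the pairs numbered 1 to 4. Its untreated arrays ran from 5.69 to 10.61, and it did not pass without the block (limma adjusted p = 0.0517, and 0.0324 with the block).

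Genes were ranked by likeness to Smad7 over the 8 arrays, leaving out names such as those of predicted, clone and numbered Rik genes. The 5 highest were Stk38l, an NDR family kinase (r = 0.95), Lnx2, a ubiquitin ligase (0.95), Tbc1d4, a regulator of Rab GTPases (0.94), Chat, the acetylcholine-synthesising enzyme (0.94), and F8a (0.93). These correlations are a description: the 8 points share the 2 groups and the replicate numbers, and the 5 were the highest of all genes ranked. None of the 5 passed the test between groups. Lnx2 came nearest, with a log2 change of 1.07 (limma adjusted p = 0.0683) and KCl arrays at 5.405 to 6.49, all above the untreated arrays at 4.79 to 5.35. Chat stayed between 3.71 and 4.10 on all 8 arrays, under the median probe set.

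**Figure D2:**
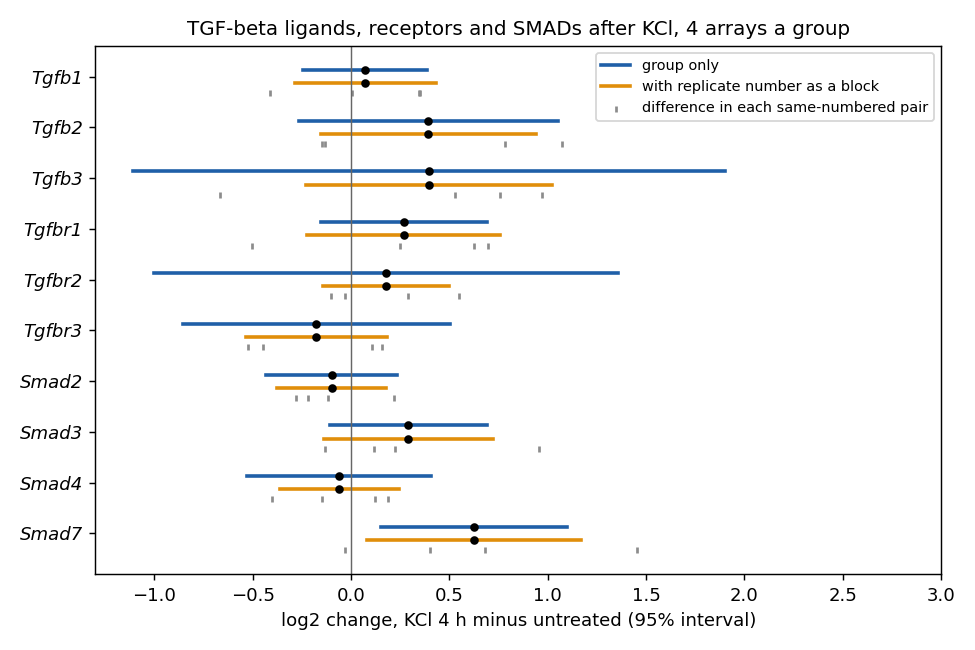
Log2 change of each gene (horizontal axis, KCl minus untreated, 4 arrays a group) with its 95% interval from the fit with group alone (blue) and with the replicate number as a block (orange), and the differences in the 4 pairs as grey ticks. The block shortens the intervals of Tgfb3, Tgfbr2 and Tgfbr3 most, and the interval of Smad7 alone lies above 0 in both fits.

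Part of the family differed between replicate numbers, whatever the treatment. In a test added after the data were seen (limma F test of the replicate number beside the group, adjusted over all genes), 2 of the 10 genes differed between numbers, where 4.26% of all genes did. They were Tgfbr2 (adjusted p = 0.0111) and Tgfb3 (adjusted p = 0.0484), whose pair means spanned 1.88 and 1.96 on the log2 scale. Tgfbr3, with a span of 0.97 and its highest values on both arrays numbered 1, did not pass (adjusted p = 0.109), nor did Smad4 (0.215), with pair means of 8.99 and 8.87 in numbers 1 and 2 and 8.43 and 8.42 in numbers 3 and 4. For Smad7 the pair means spanned 0.21 (adjusted p = 0.963). The call of Tgfbr2 was lost without the KCl array numbered 1 (adjusted p = 0.0649) or the untreated array numbered 1 (0.0994). That of Tgfb3 was lost without any one of the KCl or untreated arrays numbered 1, 3 or 4 (0.113 to 0.146), and neither passed without both arrays numbered 1 (0.40 for Tgfbr2 and 0.233 for Tgfb3). In the same test on all 8 arrays, 10 of the 72 measured further pathway genes, listed below, also differed between numbers. Itgb8 (limma F test, adjusted p = 0.0266) and Sox4 (0.0365) were among them.

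Some listed markers of other cell types also differed between numbers: 3 of 9 for endothelium and mural cells (Kdr, Acta2 and Pdgfrb) and 3 of 9 for fibroblasts and meninges (Fn1, Vtn and Pdgfrl), beside the 4.26% of all genes. The other 6 of each list did not pass, among them the endothelial genes Pecam1, Cdh5 and Cldn5, under 5 on every array, and the collagens Col1a1 (adjusted p = 0.0613), Col1a2 (0.408) and Col3a1 (0.721). In both lists 0 markers passed between KCl and untreated arrays. Acta2, the smooth muscle actin, stood at 10.79, 10.92, 7.13 and 6.68 in the KCl arrays, against 11.07, 10.98, 6.59 and 7.18 in the untreated arrays. Kdr, a VEGF receptor, stood at 7.91, 8.34, 5.62 and 5.18 in the KCl arrays, against 7.76, 8.17, 5.42 and 5.48 in the untreated arrays. The summed level of the 9 markers of endothelium and mural cells, on the log2 scale, was 8.19 to 11.26 in KCl and 8.15 to 11.32 in untreated arrays, with Acta2 the highest value of the 9 on every array. Without Acta2 it was 7.57 to 9.02 in KCl and 7.496 to 8.99 in untreated arrays, or 8.65 to 9.02 for numbers 1 and 2 and 7.496 to 7.72 for numbers 3 and 4. Kdr then had the highest value for numbers 1 and 2, and 5 of the 9 markers stayed under 5 on every array. The sum for fibroblasts and meninges was 10.25 to 10.92 in KCl and 10.06 to 10.83 in untreated arrays and included Thy1, at 9.35 to 10.01, which mouse neurons also express. Without Thy1 it was 8.74 to 9.99 in KCl and 8.47 to 9.63 in untreated arrays, with Fn1 the highest of the remaining markers on every array. No marker was at 0, since RMA values do not reach it. Gad2, 1 neuronal marker of 9, and Aqp4, 1 astrocyte marker of 8, also differed between numbers. The pair means of Aqp4 fell from 10.67 to 10.08, 9.79 and 9.55 over the numbers 1 to 4. Those of Gad2 were lowest in number 1, at 6.93, 8.03, 8.85 and 8.57. The astrocyte glutamate transporter Slc1a2 fell with KCl (log2 change -0.78, limma adjusted p = 0.0479, and 0.0620 with the block). It was the only call among the 50 measured markers in the fit with group alone, where 2.36% of all genes passed. The astrocyte markers Gfap, Slc1a3 and Aqp4 did not pass (adjusted p = 0.993, 0.891 and 0.951). With the block, where 4.44% of all genes passed, the single call was Gad2, of inhibitory neurons, which was lower in 4 of 4 pairs (log2 change -0.49, adjusted p = 0.0458, and 0.0872 to 0.185 with any one pair left out). Gad1, also of inhibitory neurons, went the other way. It was higher in 4 of 4 pairs without passing (log2 change 1.08, limma adjusted p = 0.353, and 0.0765 with the block). The summed level of the 8 astrocyte markers was 12.51 to 12.96 in KCl and 12.59 to 13.25 in untreated arrays. The part of these cells in the values of Tgfb3 and Tgfbr2 was not tested.

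**Figure D3:**
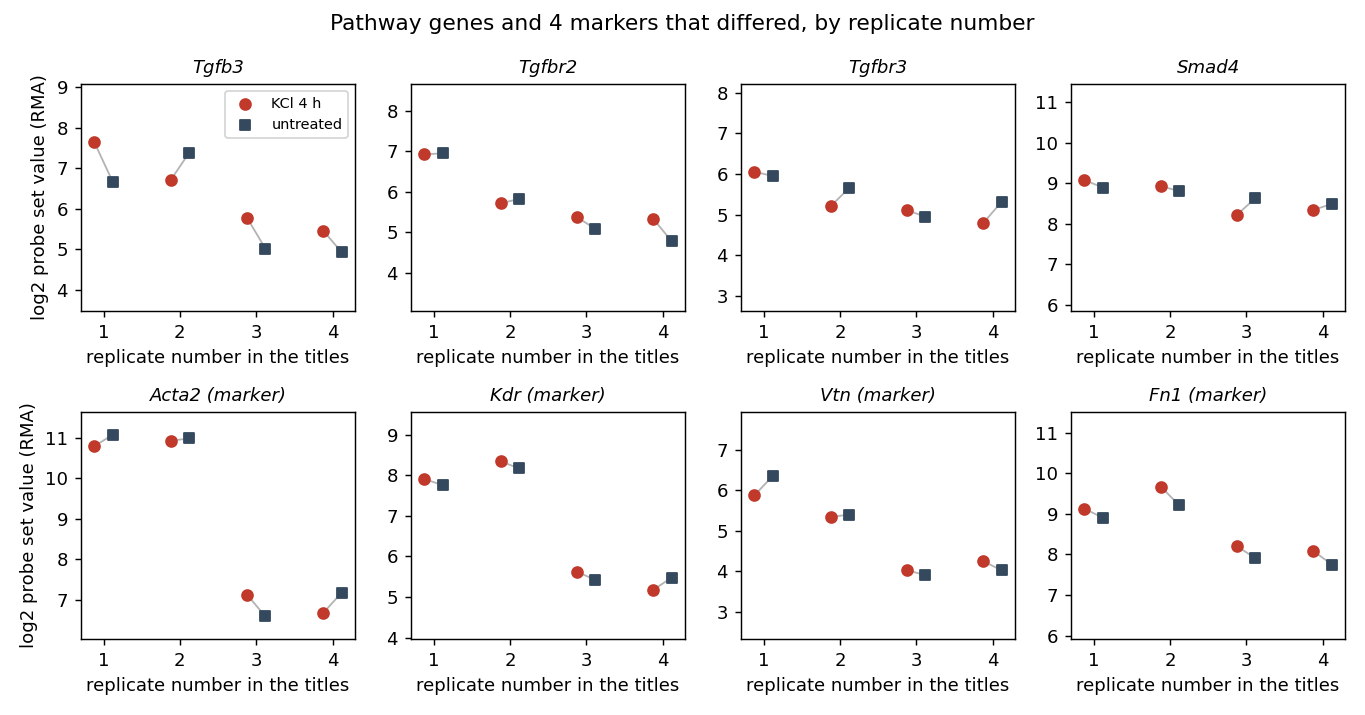
Log2 probe set values (vertical axis, RMA) of 4 pathway genes (top) and 4 markers that differed between numbers, Acta2, Kdr, Vtn and Fn1 (bottom), by the replicate number of the titles, with KCl arrays as red circles and untreated arrays as dark blue squares, joined within each number. Tgfb3 and Tgfbr2 are higher in numbers 1 and 2 than in numbers 3 and 4 in both groups, as are the 4 markers. The markers shown were picked because they differed, and most others of their lists did not. Pecam1, not shown, had pair means of 4.12 and 4.13 in numbers 1 and 2 and of 4.42 in numbers 3 and 4.

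Of 78 further genes of the pathway, set out in 5 lists, 72 were measured, and 2 rose and 0 fell (limma, adjusted p under 0.05), against 1.34% and 1.02% of all genes. Both that rose came from the 2 lists of genes chosen for acting on SMADs, which held 15 and 16 of the 72. Smurf2, a ubiquitin ligase that Smad7 brings to the receptor and that marks SMADs for degradation, stood at 8.73, 8.64, 8.62 and 8.57 in the KCl arrays, against 8.02, 8.08, 7.96 and 8.18 in the untreated arrays. It was higher in 4 of 4 pairs with no overlap, a log2 change of 0.58, or 1.49-fold (SE 0.08, limma adjusted p = 0.0138, 0.0294 with the block). Crebbp, the CREB-binding acetyltransferase that is also a coactivator of SMADs, stood at 10.61, 10.49, 10.39 and 10.42 in the KCl arrays, against 10.06, 10.03, 9.92 and 9.98 in the untreated arrays. Its log2 change was 0.48, or 1.39-fold (SE 0.09, limma adjusted p = 0.0278, 0.0372 with the block).

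The call of Smurf2 was lost without the KCl array numbered 3 (adjusted p = 0.0503) and without both arrays numbered 1 (0.0570). That of Crebbp was lost without both arrays numbered 1 (0.0755) and with any single array left out other than the untreated one numbered 1 (0.0624 to 0.0874), although its log2 change stayed between 0.43 and 0.51. With trended and robust eBayes neither passed (0.0661 for Smurf2 and 0.0519 for Crebbp), and with the block and any one pair left out neither passed (0.0687 to 0.134 for Smurf2 and 0.104 to 0.147 for Crebbp).

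The SMAD turnover list held 15 measured genes, of which Smurf2 rose and 14 did not pass, with a median log2 change of 0.05. Among the 16 measured corepressors, coactivators and partners of SMADs, Crebbp rose and 15 did not pass, with a median of 0.07. No gene passed among the 12 measured for ligand processing, latency and activation (median -0.03). There the smallest p-values belonged to the integrin subunits that release latent TGF-beta, Itgb8 (log2 change 0.65, limma adjusted p = 0.428) and Itgav (0.22, adjusted p = 0.553), both higher in 4 of 4 pairs. With the block, Itgb8 passed (adjusted p = 0.0238): it stood at 9.39, 9.27, 8.58 and 8.56 in the KCl arrays, against 8.95, 8.56, 7.78 and 7.90 in the untreated arrays, so every pair was higher although the groups overlapped. With one pair left out it passed in 1 of 4 such fits (0.0418 to 0.118).

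None of the 14 measured co-receptors and receptor partners passed, at a median of 0.14. Pmepa1, a target of the pathway that holds SMADs away from the receptor, had KCl arrays at 5.32 to 5.97 and untreated arrays at 4.38 to 5.32, so the groups met without overlap (log2 change 0.82, limma adjusted p = 0.161). With the block it did not pass (adjusted p = 0.110), and with 1 pair left out it passed in 1 of 4 such fits (0.0433 to 0.330). Strap, an adaptor that binds the receptors and Smad7, had a change of 0.26 (adjusted p = 0.239). In the non-SMAD branch none of 15 measured genes passed, at a median of -0.0041: Tab1, which activates the kinase of Map3k7, had a log2 change of -0.66 (adjusted p = 0.181) and Xiap, an apoptosis inhibitor that binds Tab1, of -0.52 (adjusted p = 0.173). Tab1 was higher by 0.22 in the pair numbered 4 and lower in the others. It passed in 1 of 8 fits with a single array left out (limma adjusted p = 0.0378 to 0.377). With the block and 1 pair left out it passed in 1 of 4 fits (0.0470 to 0.474). Xiap was lower in 4 of 4 pairs and passed with the block (adjusted p = 0.0290), but in 0 of 4 fits with one pair left out (0.0858 to 0.126). With the block 4 of the 72 genes rose and 1 fell, against 2.43% and 2.01% of all genes. The fourth to rise, Sox4, a SMAD partner named after its values were seen, had a log2 change of 0.76 (adjusted p = 0.422 without the block and 0.0292 with it), and passed in 1 of 4 fits with one pair left out (0.0286 to 0.130).

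**Figure D4:**
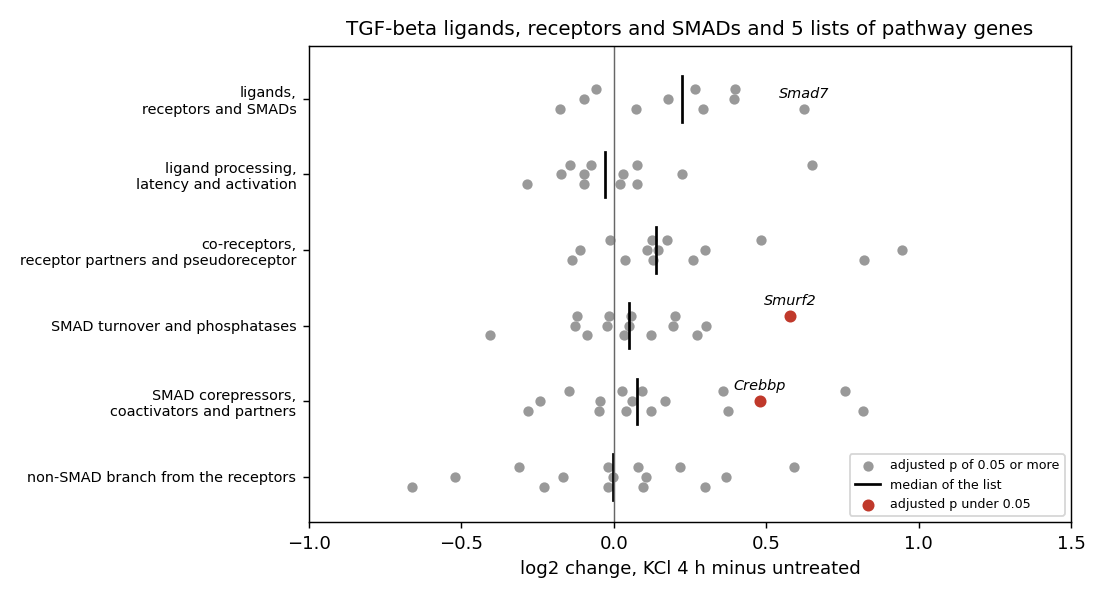
Log2 change (horizontal axis, KCl minus untreated) of the 10 ligands, receptors and SMADs (top row) and of 72 further pathway genes in 5 lists, each point a gene and each black bar the median of its row. The 2 genes past the threshold, Smurf2 and Crebbp, are in red, and Smad7 is named in the top row.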

How the data were processed

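Per the labels' protocols, RNA was prepared with the WT Plus kit for Affymetrix whole-transcript arrays. The authors deposited log2 probe set values. The submitters' processing notes name RMA and Partek without versions; build and batch handling are not stated there. Of 34472 probe sets, 23521 had 1 platform symbol, which gave 22180 genes (the probe set of highest mean per gene). All 10 genes matched RefSeq (GRCm38.p6), the source of the promoters.

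Groups came from the titles. The test was limma's moderated fit (version 3.58.1, run under R 4.3.3; group as the single term, two-sided, Benjamini-Hochberg over all genes, threshold 0.05). Intervals are moderated 95% intervals. Replicate numbers were taken to pair the arrays because same-numbered deviations correlated over 0.1 in all 4 pairs (0.638, 0.234, 0.409 and 0.368), although no label gives a shared litter or day. The fits were tested on simulated data. Alternatives were the block, quantile normalization, median centring, brighter genes, the mean of probe sets, each probe set, trended robust eBayes, array weights, and arrays or pairs left out. The F test was added later.

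Named genes are the 10, list genes past the threshold or else the 2 of smallest p, and the 5 most like the gene of smallest p, without predicted, clone and numbered Rik names. Members and lists were chosen with earlier results of these data known. Figures used matplotlib 3.10.9.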

Additional observations from a re-analysis of the deposited data

How the results depend on the processing

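None of the 10 ligands, receptors and SMADs passed the threshold under any of the 21 alternatives run, the lowest adjusted p being 0.0614 (Tgfb3, with the block and without the pair numbered 2). Tgfb1 and Smad7 were too dim to enter the fit on brighter genes. Of 208 log2 changes of these genes under alternatives, 196 kept their direction and 12 changed sign, all with single arrays or pairs left out: with single arrays left out the changes ran from -0.013 to 0.15 for Tgfb1, -0.017 to 0.86 for Tgfb3, -0.18 to 0.61 for Tgfbr2, -0.18 to 0.011 for Smad2 and -0.20 to 0.079 for Smad4, and with pairs left out and the block from -0.021 to 0.23 for Tgfb1 (-0.019 without pair 3) and -0.14 to 0.055 for Smad4. The causes were not tested. The replicate block changed no call of the 10 genes.

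The 2 further pathway genes past the threshold became 5 with the replicate block, 1 after repeated quantile normalization, 1 among brighter genes, 0 with trended and robust eBayes (Smurf2 at an adjusted p of 0.0661, Crebbp at 0.0519), 0 without both arrays numbered 1, 0 to 2 with single arrays left out and 0 to 2 with pairs left out and the block. Crebbp was at 0.0690 after quantile normalization and 0.0762 among brighter genes. All genes past the threshold numbered 524, and 985 with the replicate block, 186 to 501 with single arrays left out and 146 to 538 with pairs left out and the block (293 without pair 4). The 2 members that differed between replicate numbers became 1 after quantile normalization, 1 with median centring and 1 with array weights, where Tgfb3 was at 0.0616, 0.0576 and 0.0652, and 0 to 2 with arrays or pairs left out. The arrays' number limits the precision, and signal over background was not available for these values.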
